A study of Drosophila melanogaster with 2 samples.

Results

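The Cpr genes encode cuticle proteins of the fly, and 70 of the 13968 protein-coding genes in the Release 6 gene models carried a symbol made of Cpr and a number. They were chosen by that symbol alone, with no measured value, though earlier results of these data were known. The genes were then set against peaks of a tagged transcription factor. Whole Drosophila melanogaster embryos aged 0 to 18 h, from a transgenic line carrying an hbn-eGFP fusion, were precipitated with an antibody to GFP; the antibody field of the labels names hbn. The series has 1 group of 2 biological replicates, both of that line and age, so the labels give no untagged, untreated or staged embryos to compare with, and the control experiment they mention was not analysed here. Chromatin of all embryonic cells was pooled, so a site used in few cells and a site used weakly in many cannot be told apart. Peaks lie on dm6, which is the Release 6 assembly, and read depth is unknown.

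The insect cuticle is a layered extracellular coat of chitin and protein that the epidermis secretes late in embryonic life and again before each moult. Cpr proteins carry the Rebers and Riddiford consensus, a chitin-binding stretch; its RR-1 form is known mainly from soft cuticle and its RR-2 form mainly from hard cuticle. Many of the genes sit in tandem clusters and are switched on in the epidermis for short periods around each round of cuticle deposition, under ecdysone and the nuclear receptors that follow it. Homeobrain, the product of hbn, is a paired-like homeodomain transcription factor known from the embryonic brain. Ordinary promoters of widely used genes often carry the TATCGA core of the site bound by DREF, whereas genes switched on in 1 tissue more often carry a TATA box.

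All 70 members have a RefSeq product named as a cuticular protein. In their longest annotated translations, which run from 93 to 1231 residues, a short RR-2 pattern was found in 18 members and a short RR-1 pattern in 37, and 15 held neither. These patterns were chosen after the proteins had been read. The stricter original spacing of the consensus was found in 5, all of the RR-1 form.

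Summits of the hbn-eGFP peaks were rare around Cpr genes. The conservative set, which holds peaks that kept their rank between the replicates at an irreproducible discovery rate (IDR) of 0.01, placed a summit inside or within 5 kb of 6 of 70 Cpr genes (8.57%, 95% Wilson interval 3.99 to 17.5), against 50.1% of all protein-coding genes. A summit within 500 bp of an own transcript start was found for 1 member, Cpr73D (1.43%, interval 0.253 to 7.66), against 26.5% of all genes. Both backgrounds lie above the intervals of the members. The intervals cover the number of genes counted and no reads, and neighbouring genes can share a summit.

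The gap was present in each replicate's own peak set. In replicate 1, 8 Cpr genes had such a summit inside or within 5 kb, beside 47.3% of all genes, and 0 had one at an own start, beside 24.5%. In replicate 2, where fewer peaks passed, the counts were 4 and 0, beside 37.6% and 17.6%. The pooled set gave 8 and 0, beside 50.1% and 26.6%. A count of 0 of 70 has a Wilson upper bound of 5.20%.

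Cpr genes are shorter than most, with a median length of 1093.5 bp against 2164.5 bp, and 63 of them (90%) have 1 transcript start, against 73.5% of all genes. Among genes with 1 start and a length of at most 1894 bp, the upper quartile of the Cpr genes, a summit lay inside or within 5 kb of 2 of 51 Cpr genes, beside 38.5% of the 5522 genes of that kind. At own starts the counts were 0 of 51, with an upper bound of 7.005%, beside 16.3%. This comparison was added after the data had been seen. A median of 3 other protein-coding genes started within 5 kb of Cpr genes and of all genes alike, with lower quartiles of 1 and 2. The nearest other start was a median of 1937 bp away for Cpr genes and 1418 bp for all genes.

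**Figure D1:**
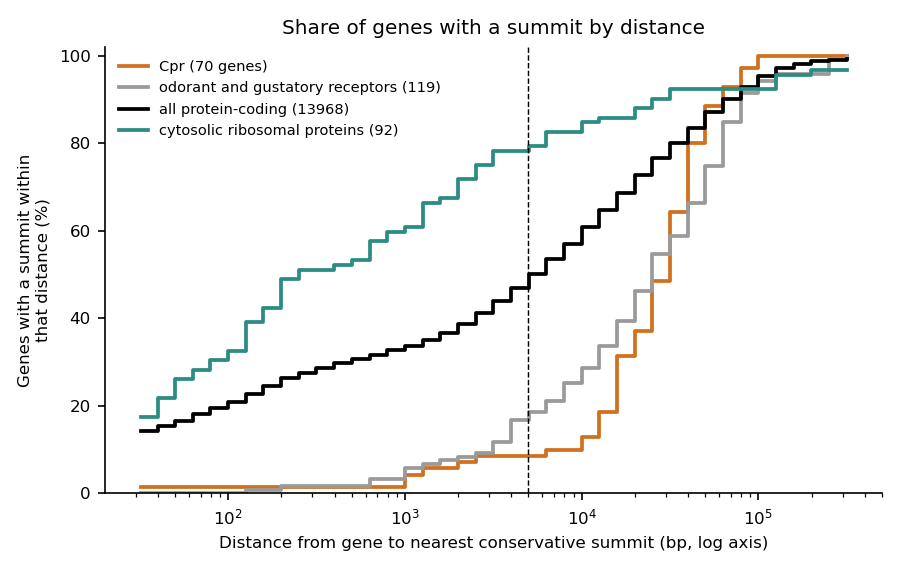
Share of genes (vertical axis, %) that have a conservative summit within a given distance of the gene (horizontal axis, bp, log scale), for 70 Cpr genes, 119 odorant and gustatory receptor genes, 92 cytosolic ribosomal protein genes and all 13968 protein-coding genes; the dashed line marks 5 kb. The Cpr line stays at 8.57% at 5 kb, and meets the line of all genes near 50 kb (88.6% against 87.2%).

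Farther out the difference closed. The median distance from a Cpr gene to its nearest conservative summit was 25371 bp, against 4919 bp for all genes. Within 20 kb, 27 Cpr genes (38.6%) had a summit, against 72.7% of all; within 50 kb the shares were 62 of 70 (88.6%) and 87.2%. The plot of shares by distance shows both lines. Odorant and gustatory receptor genes, another family of short genes switched on in few cells, had one inside or within 5 kb in 22 of 119 cases (18.5%, interval 12.5 to 26.4) and at an own start in 0 of 119. Their 5 kb interval overlaps that of the Cpr genes. Ribosomal protein genes, which nearly every cell uses, stood at 73 of 92 (79.3%, interval 69.98 to 86.4) and 45 of 92 (48.9%, interval 38.9 to 59.0).

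In all, 8 conservative summits made up the 6 Cpr genes with a summit in range, and the nearest protein-coding start was that of another gene for each of the 8. The distance to that other start was 4 to 210 bp, while the distance to an own Cpr start was 345 bp or more. Of all protein-coding genes, 6993 had a summit inside or within 5 kb and 3696 had one within 500 bp of an own start. Many genes with a summit in range thus had none at an own start. The share of summits nearest to another gene's start was not counted over all genes, so the 8 have no like value beside them. On chromosome arms 2L and 3L, 4 Cpr genes were concerned.

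Cpr31A (FBgn0053302, chr2L:10054213-10055935, plus strand) had a summit in intergenic sequence 933 bp past its 3′ end and 32 bp upstream of Pen, an importin that carries proteins into the nucleus. Its signal, the enrichment value of the authors' peak caller on a scale that is not stated, was 133 in the conservative set, where the median peak has 119. In the replicates' own ranked lists, which keep weak entries, the same site had 85.3 in replicate 1 and 35.3 in replicate 2. Only replicate 1's value passed the threshold of that replicate's own peak set.

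Cpr66Cb (FBgn0035875, chr3L:8336672-8338595, plus strand) lay 1980 bp from a summit of signal 86.6. That summit is in an intron of Prim1, which encodes a subunit of the primase that starts new DNA strands, and 210 bp upstream of CG7083. The ranked lists of replicates 1 and 2 gave 49.8 and 48.8, and in neither did the site pass that replicate's threshold.

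Cpr67B (FBgn0035985, chr3L:9404797-9406174, plus strand) lay 2313 bp from a summit of signal 136 that is 24 bp upstream of eIF4E1, the translation factor that binds the mRNA cap. This site passed in both replicates, with 89.5 in replicate 1 and 44.4 in replicate 2. It was the most distant of the 6 genes inside the 5 kb limit; the first gene outside it was Cpr78Ca at 5835 bp.

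Cpr73D (FBgn0036680, chr3L:16939100-16957689, minus strand) is the longest member at 18590 bp and the only Cpr gene with summits inside. Both summits fall in its annotated 5′ UTR exons. Ogdh, which encodes the 2-oxoglutarate dehydrogenase of the citric acid cycle, is read from the opposite strand, and its starts lie within the first part of Cpr73D. The stronger summit, of signal 352, was 2285 bp downstream of the Cpr73D start and 96 bp upstream of an Ogdh start; 92.6% of conservative peaks were lower. It had 257 in replicate 1 and 100.1 in replicate 2. The weaker summit, of signal 70.8, was 345 bp downstream of the Cpr73D start and 95 bp upstream of another Ogdh start, and it alone placed a Cpr gene among those with an own-start summit. It had 35.03 and 34.1 in the replicates' ranked lists, below the threshold of each, a score of 908 out of 1000, and a −log10 IDR of 2.19 where the conservative set begins at 2.00.

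**Figure D2:**
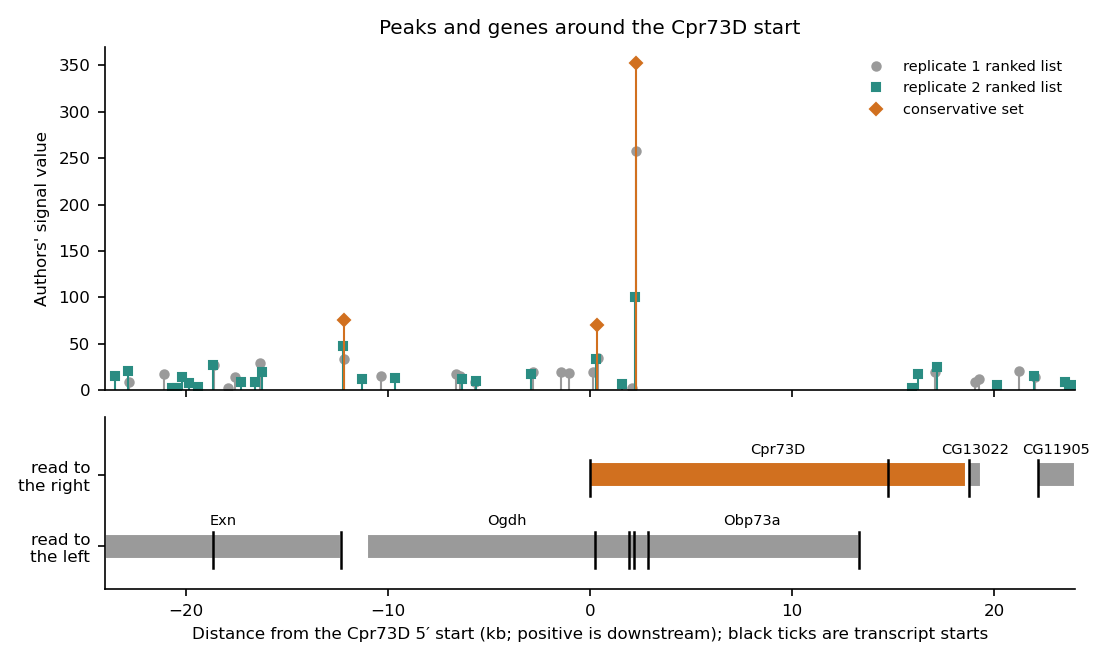
Peak signals (upper panel, the authors' signal value) and gene bodies (lower panel) by distance from the 5′ start of Cpr73D in kb, with positive values downstream; diamonds are conservative summits, circles and squares are entries of the ranked lists of replicates 1 and 2, and black ticks are transcript starts. The summit of 352 and the one of 70.8 both stand beside Ogdh starts, and the third diamond, of 75.7, stands at Exn.

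The 201 bases centred on the summits beside these 4 genes are shown because each lies at the start of a gene that is no Cpr gene. Sequence is from the RefSeq copy of Release 6, and capitals mark TATCGA, read on either strand, so that TCGATA is the same element on the other strand.
Summit beside Cpr31A, at Pen (chr2L:10056768-10056968, plus strand): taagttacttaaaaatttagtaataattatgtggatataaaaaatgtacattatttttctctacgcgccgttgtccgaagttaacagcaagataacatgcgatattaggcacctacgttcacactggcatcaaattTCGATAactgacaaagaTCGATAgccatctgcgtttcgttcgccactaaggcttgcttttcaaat
Summit beside Cpr66Cb, at CG7083 (chr3L:8340475-8340675, plus strand): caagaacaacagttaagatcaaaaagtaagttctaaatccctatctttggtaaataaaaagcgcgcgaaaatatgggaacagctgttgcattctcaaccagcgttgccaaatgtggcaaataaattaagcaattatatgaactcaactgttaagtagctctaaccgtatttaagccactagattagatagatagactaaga
Summit beside Cpr67B, at eIF4E1 (chr3L:9402384-9402584, plus strand): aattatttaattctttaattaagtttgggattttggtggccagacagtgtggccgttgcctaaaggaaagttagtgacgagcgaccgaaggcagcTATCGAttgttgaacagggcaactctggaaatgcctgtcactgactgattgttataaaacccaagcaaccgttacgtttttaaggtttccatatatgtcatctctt
Stronger summit within Cpr73D, at Ogdh (chr3L:16955304-16955504, plus strand): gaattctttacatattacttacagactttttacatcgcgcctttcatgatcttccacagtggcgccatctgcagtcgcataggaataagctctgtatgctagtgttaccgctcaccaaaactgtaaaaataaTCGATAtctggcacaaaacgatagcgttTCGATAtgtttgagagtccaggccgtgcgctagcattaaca
Weaker summit within Cpr73D, at Ogdh (chr3L:16957244-16957444, plus strand): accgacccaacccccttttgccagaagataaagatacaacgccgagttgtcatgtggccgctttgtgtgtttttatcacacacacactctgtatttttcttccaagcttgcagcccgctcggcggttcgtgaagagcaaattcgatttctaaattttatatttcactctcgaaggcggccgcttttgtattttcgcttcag

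TATCGA was present in 3 of these 5 windows: at Pen, at eIF4E1 and at the stronger Ogdh summit. The windows of the CG7083 summit and of the weaker Ogdh summit did not hold these letters. With the 3 further summits described next, 5 of 8 windows held it; over all 3592 conservative summits the share was 48.5%. A match is a run of letters and does not show which protein was bound.

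On chromosome arm 2R, 2 members had the remaining summits. Cpr56F (FBgn0034499, chr2R:20288371-20291945, minus strand) lay 1168 bp from an intergenic summit of signal 115, which is 109 bp upstream of CG16868; the site passed in both replicates, with 53.0 and 55.7. Cpr60D (FBgn0050163, chr2R:24662682-24663406, minus strand), the member with the shortest protein, stands in a stretch of 2859 bp between 2 summits. The first, of signal 92, was intergenic and 4 bp upstream of CG3663, with 53.1 in replicate 1 and 35.5 in replicate 2, and it passed in replicate 1 only. The second, of signal 171, lay in the 5′ UTR of CG30161, 18 bp past its start and 953 bp upstream of Cpr60D, and passed in both, with 74.7 and 89.6. Over the 8 summits, 4 passed in both replicates, 2 in replicate 1 only and 2 in neither.

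A further 3 Cpr genes had a summit in range in the pooled and replicate 1 sets only. The summit 376 bp from Cpr65Ec had a pooled signal of 104.9 and a replicate 1 signal of 92.7, but 17.0 in replicate 2's ranked list and a −log10 IDR of 0.204 between the replicates; form3, a formin, had the nearest start at 601 bp. Cpr78Cc lay 3393 bp from a summit in an intron of CG11309, with 91.8 pooled, 60.9 in replicate 1 and 23.6 in replicate 2. Cpr47Eg lay 1222 bp from one in the 5′ UTR of CG9067, with 81.5, 56.3 and 21.4. These 3 sites thus passed in replicate 1 and not in replicate 2, and a Cpr start was the nearest to none of them.

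By position the 70 genes fell into 33 loci when neighbours within 20 kb were joined. There were 35 members on 3L, 21 on 2R, 5 each on 2L and 3R, and 4 on X. The loci comprised 21 single genes and 12 clusters with 49 genes in all, of which 10 held 3 or more. All 6 genes with a summit in range were single genes, and 0 of 12 clusters had a conservative summit inside or within 5 kb. In the pooled and replicate 1 sets, the sites beside Cpr47Eg, Cpr65Ec and Cpr78Cc put 3 clusters within that range. Clusters of other genes were not counted in the same way. Other protein-coding genes near clustered Cpr genes had a conservative own-start summit in 0 of 47 cases. That 0 largely follows from the lack of summits around the clusters. Near single Cpr genes only, 10 of 43 such genes had one (23.3%), beside 26.5% of all genes. The absence is thus one of the whole neighbourhood of a cluster.

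**Figure D3:**
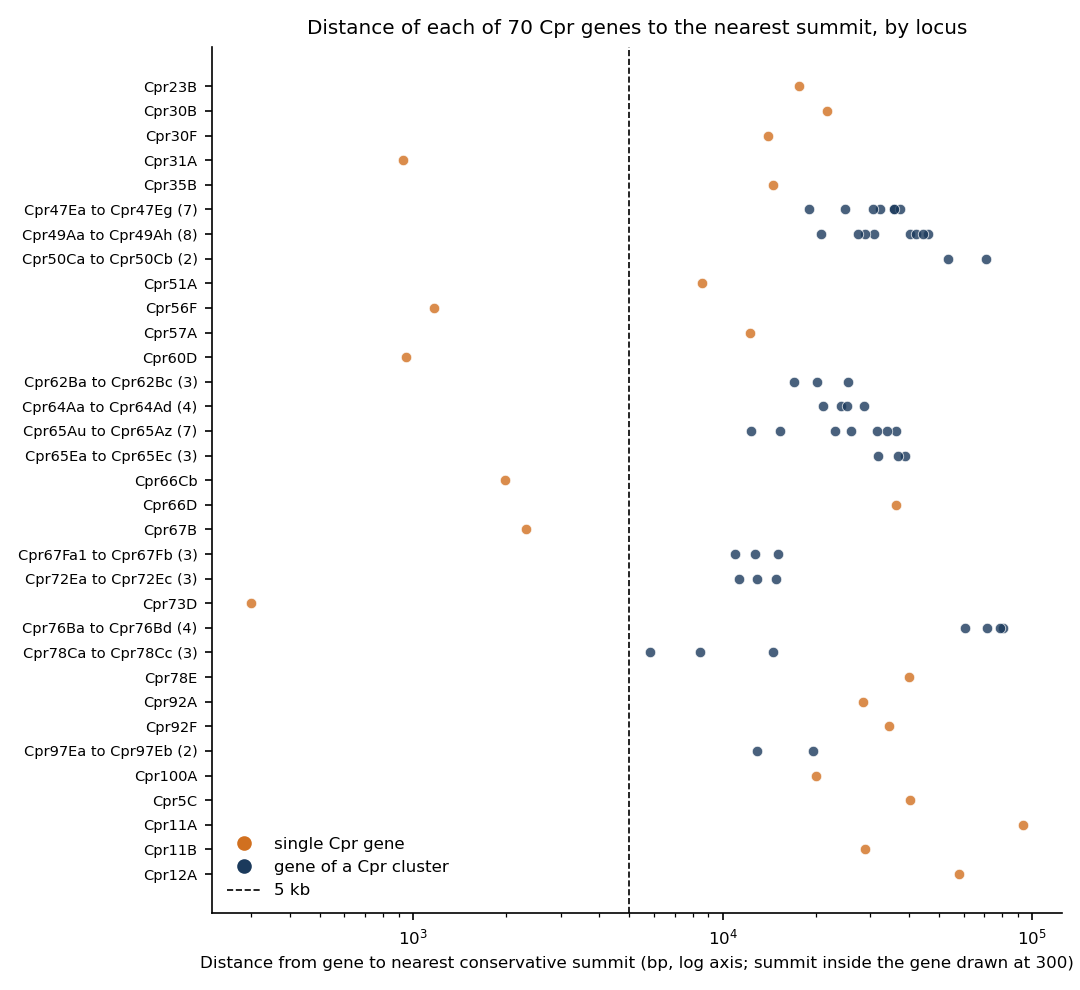
Distance in bp (horizontal, log axis) from each of the 70 Cpr genes to its nearest conservative summit, by locus in genome order (vertical; the number of genes of a cluster in parentheses), with Cpr73D, which holds its summits, drawn at the left edge and a dashed line at 5 kb. The 6 genes left of the line are single genes, and the 49 genes of clusters lie between 5835 and 80498 bp.

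Clusters were separated from their nearest summit by 5835 to 60541 bp, with a median of 18019.5 bp. The 3 genes from Cpr78Ca to Cpr78Cc lay closest, 5835 bp from a summit of 70.7 at CG12974 and 16884 bp from one of 162 at Pc, which encodes the chromatin protein Polycomb. The 3 genes from Cpr67Fa1 to Cpr67Fb were 10970 bp from a summit at CG6418, and the 3 from Cpr72Ea to Cpr72Ec were 11264 bp from one at roq. The 7 genes from Cpr65Au to Cpr65Az, which enclose 11 other protein-coding genes, 10 of them Lcp65A or Acp65A cuticle genes, were 12399 bp from a summit at fmt. The 3 genes from Cpr62Ba to Cpr62Bc were 16981 bp from a summit whose nearest start, GV1, was itself 3440 bp away. The 7 genes from Cpr47Ea to Cpr47Eg were 19058 bp from CG42336's summit, and the 8 from Cpr49Aa to Cpr49Ah, the largest cluster, 20792 bp from that of DUBAI. The 4 from Cpr64Aa to Cpr64Ad lay between summits at VhaM9.7-c and VhaM9.7-a, which encode subunits of the proton pump V-ATPase, at 21128 and 46219 bp. The 3 from Cpr65Ea to Cpr65Ec were 31714 bp from a summit at msl-3, which encodes a protein of the dosage compensation complex. The 4 from Cpr76Ba to Cpr76Bd were farthest, 60541 bp from a summit of 130.0 at ash1, a Trithorax-group methyltransferase gene.

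The stretch without a summit around a cluster ran from 32029 bp at Cpr78C to 304186 bp at Cpr76B, with a median of 89263.5 bp. Neighbouring summits of the conservative set were a median of 9439 bp apart, but a long interval holds more genes than a short one. Measured per gene, the stretch around the 69 Cpr genes with no summit inside had a median of 80807 bp, against 66991 bp for all 12320 such genes. On the X chromosome, Cpr11A and Cpr11B shared a stretch of 379334 bp. The 15 single genes with no summit in range include these and Cpr12A, Cpr5C, Cpr78E, Cpr92A and Cpr51A; Cpr51A was the nearest of them, at 8587 bp from a summit at Asx.

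Weak entries of the ranked lists were then read at Cpr starts. The ranked list of the replicates compared with each other had an entry within 500 bp of an own start for 36 Cpr genes (51.4%), against 76.8% of all genes. The other ranked list of both replicates had 28 (40.0%, against 71.3%), replicate 1's own list 21 (30%, against 64.8%) and replicate 2's own list 33 (47.1%, against 67.4%). Both replicates' own lists had an entry at 14 Cpr genes (20%, against 55.7%), and neither had one at 30 (42.9%, against 23.4%). Replicate 1 alone had one at 7 (10%, against 9.14%) and replicate 2 alone at 19 (27.1%, against 11.7%).

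Points beside the starts were read in the same list as a local reference. Those 2 kb upstream of Cpr starts had an entry within 500 bp for 43 genes and those 2 kb downstream for 40, against 36 at the starts themselves. The interval of the share at starts (39.95 to 62.75%) holds both in this list. All points come from the same genes, so the interval does not test the difference between starts and their surroundings. With the nearest other start a median of 1937 bp away, points beside a Cpr start can also lie at a neighbour's start. Over all genes the shares were 69.8% upstream, 68.5% downstream and 76.8% at starts. Odorant and gustatory receptor genes had 49.6%, 51.3% and 51.3% at the same points, so a share that does not peak at starts was not particular to Cpr genes. Replicate 1's own list had an entry for 20 Cpr genes upstream, 21 at the start and 19 downstream, beside 50.6%, 64.8% and 49.3% of all genes. Replicate 2's had one for 25, 33 and 27, beside 54.8%, 67.4% and 53.9%. The 12 clusters together held 173 entries of the compared list in 212770 bp, or 8.13 per 10 kb, beside 8.02 per 10 kb over the 5 large arms; the clusters at Cpr67F and Cpr72E held 0.

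**Figure D4:**
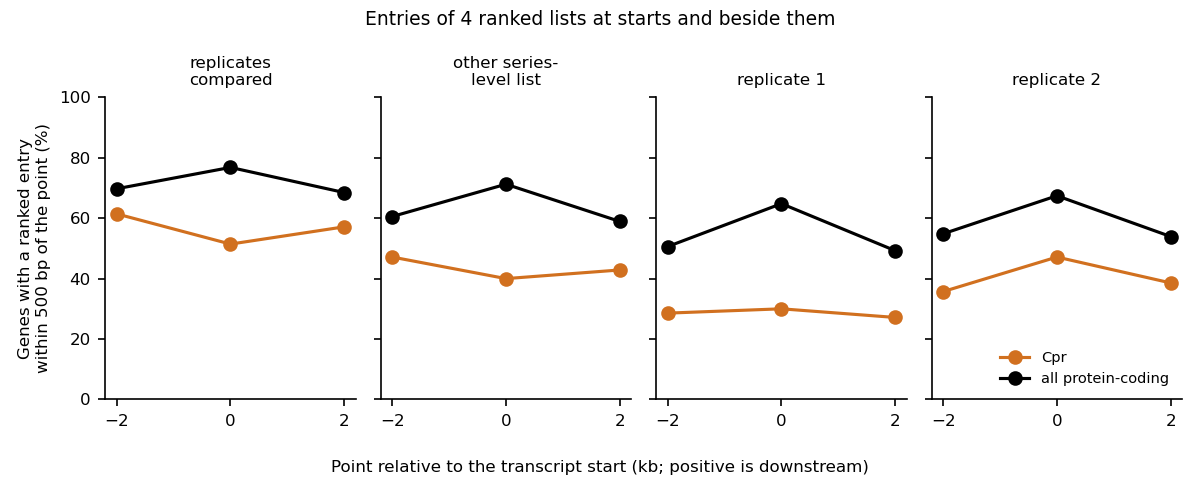
Share of genes (vertical axis, %) with a ranked entry within 500 bp of a point, for points at the transcript start and 2 kb to either side (horizontal axis), in each of 4 ranked lists; orange is 70 Cpr genes and black is all protein-coding genes. All genes peak at the start in the 4 lists, while Cpr genes run from 61.4% upstream through 51.4% to 57.1% downstream in the list of the replicates compared. In the other list of both replicates the Cpr shares are 47.1%, 40% and 42.9%. Cpr genes are also highest at the start in each replicate's own list. Their shares there are 28.6%, 30% and 27.1% in replicate 1 and 35.7%, 47.1% and 38.6% in replicate 2.

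Where Cpr starts had an entry, it was weak. The strongest entry per start had a median signal of 24.7 over the 36 Cpr genes, against 48.4 over the genes with an entry and 17.6 over the whole list. The odorant and gustatory receptor genes stood close to the Cpr genes in this list. Of them, 61 of 119 (51.3%) had an entry at an own start, with a median signal of 22.5. Among Cpr genes the highest value was the 70.8 of Cpr73D, described above. Next came Cpr57A at 55.3, with 29.4 in replicate 1 and 28.0 in replicate 2 and a −log10 IDR of 1.74; its start is shared with Obp57d, an odorant-binding protein gene, so the entry belongs to both. Cpr65Ec followed at 45.1, with 25.03 in replicate 1 and 24.9 in replicate 2 and a −log10 IDR of 1.36, and this was the strongest entry inside any cluster. These 3 were the Cpr genes whose −log10 IDR reached 1; the median over the 36 was 0.134.

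The other 7 of the 10 strongest ran from 40.6 at Cpr62Ba to 29.8 at Cpr65Eb. Cpr62Ba had 23.8 in replicate 1 and 16.3 in replicate 2. Cpr64Ab, at 36.4, had 12.5 and 16.3. Each value is the strongest entry of its own list within 500 bp of a start, so the sites can differ. For Cpr64Ab the entry lay 215 bp past the start in the compared list and 432 bp past it in replicate 2. Cpr66D, at 34.2, and Cpr47Eb, at 30.8, had an entry in replicate 1 alone, of 12.8 and 20.02. Cpr31A, at 33.3, had 21.0 and 9.79. Cpr65Az, at 32.9, had an entry of 26.0 in replicate 2 alone, and Cpr65Eb had none in either replicate's own list. Of these 7, 3 had an entry in both replicates' own lists, 3 in one of them and 1 in neither.

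Entries in the compared list were found in each protein form and in both clustered and single genes. The shares of these kinds all lay below the 76.8% of all genes. By protein form, 17 of 37 RR-1 genes had an entry at an own start, 9 of 18 RR-2 genes, and 10 of the 15 with neither pattern, with median signals of 22.8, 27.7 and 24.8. Genes in clusters had 27 of 49 and single genes 9 of 21. By cluster, Cpr64A had an entry at 4 of 4 starts, Cpr47E at 6 of 7, Cpr49A at 6 of 8, Cpr65A at 2 of 7 and Cpr76B at 1 of 4. By arm, the 4 genes on X had 0. The clusters named lie on both sides of the 76.8% of all genes. These are counts of few genes, with no test between the kinds.

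Short promoter elements were counted next, and 4 of them had a share among Cpr genes whose interval leaves out the share of all genes. In the 300 bases from 250 before to 50 after the 5′ end, TATAAA on either strand was found in 49 of 70 Cpr promoters (70%, interval 58.5 to 79.5), against 45.8% of all. On the gene's own strand and 45 to 20 bases before the start, where a TATA box usually lies, it was found in 39 (55.7%, interval 44.1 to 66.8), against 8.81%; that window was added after the data had been seen. TATCGA was found in 8 (11.4%, interval 5.91 to 21.0), against 27.7%, and the longer TATCGATA, which contains it, in 1, against 9.36%. GGTCACAC, known as motif 1 of widely used promoters, was found in 0, against 7.69%.

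Over all genes, TATCGA was present in 60.1% of promoters with an own-start summit and in 16.1% of those without; TATAAA was present in 44.2% and 46.3%. The 8 Cpr promoters with TATCGA were those of Cpr31A, Cpr47Eg, Cpr49Af, Cpr57A, Cpr64Ad, Cpr65Eb, Cpr67Fa2 and Cpr76Bb, and 0 of these had a conservative own-start summit, beside 57.4% of all 3871 genes with TATCGA in the promoter. The TATA box at its usual place was found in 22 of 37 RR-1 genes, 10 of 18 RR-2 genes and 7 of the 15 others. The remaining motifs had intervals that held the share of all genes: TCAGT, an initiator core, in 60% against 51.5%, GAGAG in 32.9% against 29.7%, CANNTG, the E-box, in 81.4% against 77.2%, TAATTA, a homeodomain core, in 14.3% (interval 7.95 to 24.3) against 20.4%, and TAATCC in 7.14% against 8.73%. ACCGGTT, a Grainyhead core, was in 2 promoters and AAGGTCA, an FTZ-F1 core, in 0, against 1.86% and 2.11%. Cpr promoters also had more G and C, with a median of 45.5% against 38%, and motif shares move with base composition; its part in them was not tested.

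**Figure D5:**
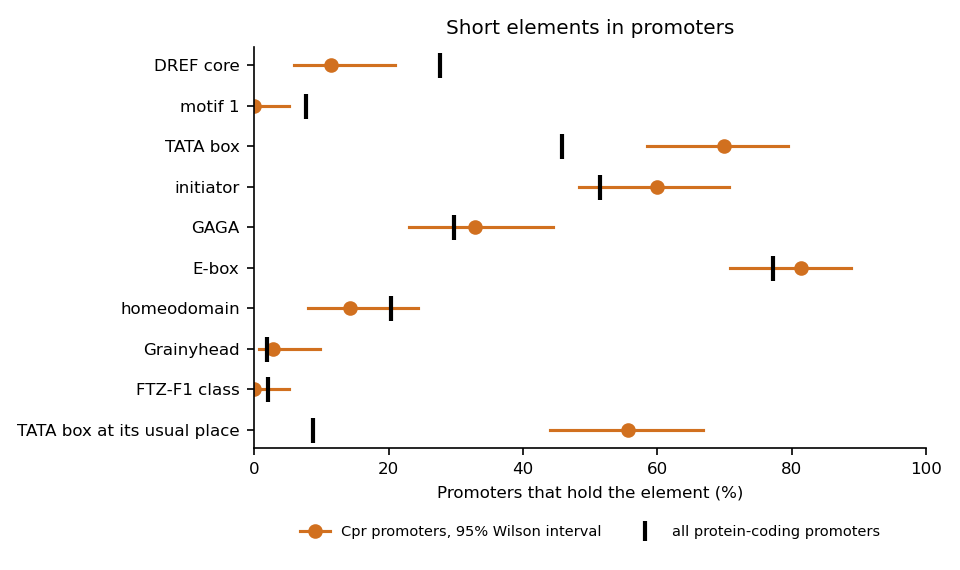
Share of promoters (horizontal axis, %) that hold a short element, for 70 Cpr promoters (orange points with 95% Wilson intervals) and all protein-coding promoters (black ticks). The largest distances between point and tick are at the TATA box at its usual place (55.7% against 8.81%), the TATA box anywhere (70% against 45.8%) and the DREF core (11.4% against 27.7%).

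Promoters of 4 members on 3L are given as examples. Cpr73D and Cpr65Ec have the strongest ranked entries at an own start among the Cpr genes of that arm, and Cpr67Fa1 and Cpr72Ea belong to the clusters that held none. They are written along the gene's own strand, 250 bases before to 50 after the 5′ end, and capitals mark TATAAA and TATCGA on either strand.
Cpr73D promoter (chr3L:16957640-16957939, minus strand): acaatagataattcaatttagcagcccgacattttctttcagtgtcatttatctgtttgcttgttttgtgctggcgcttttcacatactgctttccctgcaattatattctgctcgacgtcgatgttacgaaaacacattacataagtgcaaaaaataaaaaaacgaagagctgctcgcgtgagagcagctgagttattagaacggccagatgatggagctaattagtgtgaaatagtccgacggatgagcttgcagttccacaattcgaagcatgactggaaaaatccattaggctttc
Cpr65Ec promoter (chr3L:7092954-7093253, plus strand): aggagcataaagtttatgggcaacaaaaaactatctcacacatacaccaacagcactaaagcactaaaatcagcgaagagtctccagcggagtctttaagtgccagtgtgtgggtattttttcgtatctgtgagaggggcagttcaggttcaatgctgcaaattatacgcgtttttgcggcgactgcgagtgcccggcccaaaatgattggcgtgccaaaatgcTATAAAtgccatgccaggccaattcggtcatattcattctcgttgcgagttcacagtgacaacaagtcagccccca
Cpr67Fa1 promoter (chr3L:10889740-10890039, plus strand): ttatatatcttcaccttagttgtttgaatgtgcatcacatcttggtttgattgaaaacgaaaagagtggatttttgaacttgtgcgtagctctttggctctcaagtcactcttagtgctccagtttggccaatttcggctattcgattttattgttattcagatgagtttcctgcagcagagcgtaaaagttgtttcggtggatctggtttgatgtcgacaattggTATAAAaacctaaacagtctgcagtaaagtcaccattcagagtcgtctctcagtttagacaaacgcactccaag
Cpr72Ea promoter (chr3L:16362353-16362652, plus strand): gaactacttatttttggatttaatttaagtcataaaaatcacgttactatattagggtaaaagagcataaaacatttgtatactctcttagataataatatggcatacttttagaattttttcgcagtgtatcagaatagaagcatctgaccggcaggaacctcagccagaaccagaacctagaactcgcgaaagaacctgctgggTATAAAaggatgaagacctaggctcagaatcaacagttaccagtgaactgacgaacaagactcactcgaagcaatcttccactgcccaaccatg

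Cpr65Ec, Cpr67Fa1 and Cpr72Ea carry TATAAA shortly before the start and lack TATCGA in this window. The Cpr73D promoter carries neither. The next strongest ranked entries at own starts on 3L were those of Cpr62Ba and Cpr64Ab. Their promoters are not printed and also lack TATAAA at its usual place.

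Genes of related function gave the following counts; the lists were drawn up with earlier results of these data known. Other cuticle protein genes of the same consensus, such as the Lcp, Ccp and Edg genes, had one inside or within 5 kb for 2 of 29 and at an own start for 0, beside the 50.1% and 26.5% of all genes. Pcp, a pupal cuticle gene, had a summit of 159 whose nearest start was CG31908. Ccp84Aa had a summit of 76.2 whose nearest start was that of Ccp84Aa itself. It lay too far from that start to count as an own-start summit. The Tweedle genes, another cuticle protein family, had 0 of 26 and 0 of 26. Of the obstructor genes, whose products bind chitin, 6 of 13 had a summit in range and 1, Gasp at 72.0, at an own start.

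Enzymes and helpers of chitin synthesis and modification had 12 of 28 in range (42.9%, beside 50.1% of all genes) and 3 at an own start (10.7%, beside 26.5%). These were rtv, which acts in chitin assembly, at 250; the chitinase Cht2 at 164, where CG8001 has the nearer start; and mmy, which makes the sugar nucleotide for chitin, at 69.2. kkv, the chitin synthase, had its strongest summit, of 227, at CG1172. Genes of cuticle tanning and pigment had 6 of 17 in range (35.3%) and 0 at an own start; the strongest summit near Ddc, dopa decarboxylase, was 222 and at CG10561.

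The regulators of moulting and epidermis stood at the other end. They had 16 of 20 in range (80%, beside 50.1% of all genes) and 11 at an own start (55%, beside 26.5%). The strongest own-start summits were those of usp at 265, the partner of the ecdysone receptor, ftz-f1 at 217, a nuclear receptor, and ttk at 98.4, a zinc finger repressor. Next was Hr3 at 92.9, another nuclear receptor, where CG46321 has a start as near or nearer. The regulators in range without an own-start summit were br, Eip93F, Hr4, Hr38 and Hr39, and the strongest summit of each lay nearest another gene's start. So did the strongest summits in range of Eip74EF and CrebA, at CycT and AGO2. EcR, the ecdysone receptor gene, had 88.0 and grh, the epidermal factor Grainyhead, 50.2. These genes are long, with a median of 32240.5 bp against 1093.5 bp for the Cpr genes, and the part of gene length in these counts was not tested.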

How the data were processed

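Peaks of hbn-eGFP ChIP-seq from 2 biological replicates of whole embryos were used as deposited. Per the labels, chromatin was sonicated to 200 to 800 bp and the assembly is dm6; which aligner and peak caller were run is not given in the sources used here. The deposited score, of at most 1000, follows the IDR. The signal the authors deposited is an enrichment on an unstated scale, so it is compared within a list. The deposited −log10 values are those of the global IDR between paired lists. Every conservative entry was in the list called the replicates compared. A further 16 columns of paired values in the series-level lists were not used. Depth is unknown.

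Summits (3592 of 3595 conservative entries on the chromosome arms) were set against Ensembl release 115 models of BDGP6 in Python 3.11.15 with pandas 2.3.3, numpy 2.4.6, scipy 1.17.1 and matplotlib 3.10.9. Transposable elements were left out. Replicate values of conservative summits are the strongest entry within 250 bp of the summit in that replicate's own ranked list. Values at own starts are the strongest entry within 500 bp of a start in each list. They can therefore come from different sites. Sequence is RefSeq's for that assembly, and proteins were translated from the annotated coding exons. Shares have 95% Wilson intervals, which cover the number of genes counted; genes that share a summit are not independent, and no p-value was computed. Counting was checked on planted summits. Named genes are every Cpr gene with a conservative summit within 5 kb with the gene of the nearest start, the 10 with the strongest ranked entry at an own start, the ends of clusters of 3 or more, those just inside and outside 5 kb, and up to 4 members of each other list by own-start signal; others, among them single genes without a summit in range, kkv, Ddc, EcR, grh, Pcp and Ccp84Aa, were named after their values were seen. The members and lists were chosen with earlier results of these data known. Alternatives were other peak sets, windows, joins and signal limits.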

Additional observations from a re-analysis of the deposited data

How the results depend on the processing

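Of 38 alternatives, 31 left a count within 1.5 times its main value. Cpr genes with a summit in range numbered 4 to 9 over 7 alternatives and loci 4 to 8 over 9, beside 6 each. 2 results moved further. The own-start count, of Cpr73D alone in the main setting, was 0 in the pooled set, among peaks of at least median signal and with a window of 250 bp, and 2 with a window of 1000 bp. With 1 replicate left out, the own-start count was 0 to 0 and the count of ranked entries at own starts 21 to 33, beside 36; the value of 21, the other count that moved, is replicate 1's own list. Summits nearest to a Cpr start numbered 0 under all 8 alternatives run, also of 13 summits within 10 kb.

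No paired analysis was possible because the series has 1 group. Depth is unknown and no control sample was analysed here, so an absent peak is one not called at this depth. With 2 replicates of unlike peak number, counts from each replicate's own set also follow how many peaks passed. Peaks give no transcript levels, so whether a Cpr gene was expressed in these embryos was not analysed here. Whole embryos mix all cells and ages from 0 to 18 h.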
